A study of Xenopus laevis with 7 samples.

Results

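The secreted protein genes kazald1, pkdcc, angptl4 and pnhd were described across the lips of the frog gastrula. Their rows were chosen by the human symbols KAZALD1, PKDCC and ANGPTL4 and by the frog name pnhd, with Xelaev18003702m, a row without a human symbol that was chosen for measured values like those of the kazald1 row numbered next to it. The choice rested on earlier results of these libraries, in which the first 3 genes stood out as dorsal, and on ventral lip 1 against ventral lips 2 and 3. All values between lips given for these rows are therefore a description, with no test. The rule found 11 of 44421 transcripts, of which 8 averaged 1 RPKM or more in the lips, as did 16514 transcripts in all. RPKM counts reads scaled to transcript length and to mapped reads, so that levels can be compared between transcripts.

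Polyadenylated RNA of the African clawed frog Xenopus laevis was sequenced at stage 10.5, early in gastrulation, in 3 dorsal lip libraries, 3 ventral lip libraries and 1 whole embryo library. All groups were wild type, had the background Nasco, and received no treatment beyond dissection of the lips in Barth's solution. How many embryos were pooled in a library, and whether the replicates came from separate clutches, is not given in the sources used here, so the p-values reflect the spread among these libraries alone, possibly a technical one. The replicate numbers mark experiments, per the file headers, and the whole embryo library belongs to experiment 1.

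The dorsal lip of the blastopore holds the Spemann organizer, which secretes antagonists of BMP and Wnt signals and later forms axial mesoderm, while the ventral lip secretes BMP pathway proteins of its own. Kazald1, also called Mig30, is a secreted protein with an insulin-like growth factor binding domain, and its overexpression in Xenopus disturbs gastrulation movements. Pkdcc, also called Vlk, is a secreted tyrosine kinase that phosphorylates extracellular proteins in mammals. Angptl4 inhibits lipoprotein lipase in mammals, and in Xenopus it lowers Wnt signalling by promoting turnover of the co-receptor Lrp6 with syndecans. Pinhead, the product of pnhd, acts in zebrafish with the BMP family ligand Admp.

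Recovered reads came to between 26438048 and 37999133 per library, so that 1 read over 1 kb was worth 0.0257 to 0.0369 RPKM. Chordin, the defining BMP antagonist of the organizer, lay between 150 and 263 RPKM in the dorsal lips for its 3 transcripts and between 0.0845 and 0.871 RPKM in the ventral lips. The 10 transcripts of the ventral center markers szl, bambi, ventx and wnt8a summed to between 723 and 1325 RPKM in the ventral and 63.5 to 166 RPKM in the dorsal lips. Both tissues thus carried the markers of their labels. The lips of experiment 1 stood apart from those of experiments 2 and 3, and the dorsal to ventral ratios are therefore given within experiments.

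The most abundant of these transcripts in the dorsal lips was the kazald1 transcript Xelaev18003703m. It stood at 182, 100.0 and 108 RPKM in dorsal lips 1, 2 and 3, at 43.2, 2.60 and 2.83 RPKM in ventral lips 1, 2 and 3, and at 132 RPKM in the whole embryo. The groups did not overlap, but ventral lip 1 lay far above the other ventral lips. The dorsal mean was 130.1 ± 45.3 RPKM and the ventral mean 16.2 ± 23.4 RPKM (SD, n = 3 each), a difference of 4.04 on the scale of log2(RPKM + 0.5). The ventral SD exceeds the ventral mean because of that 1 library. In these bulk samples, fewer cells that make a transcript and less of the transcript per cell cannot be told apart.

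The row next to it, Xelaev18003702m, stood at 135, 88.3 and 95.9 RPKM in the dorsal lips, at 33.3, 2.57 and 2.81 RPKM in the ventral lips, and at 98.7 RPKM in the whole embryo. Its dorsal mean was 106 ± 25.1 RPKM and its ventral mean 12.9 ± 17.6 RPKM. Its order of the libraries on each side was that of Xelaev18003703m. The row was chosen for this likeness, so nothing is read from it. Its level lay below that of Xelaev18003703m in every library. The ratio of its level to that of Xelaev18003703m was 0.745 in the whole embryo and 0.741, 0.883 and 0.888 in the dorsal lips. In the ventral lips this ratio was 0.770, 0.989 and 0.992. All 3 libraries of experiment 1 thus had a lower ratio than the 4 of experiments 2 and 3. Whether these rows are separate genes or pieces of a single gene model is not given in the sources used here. Their recovered lengths were 1421 bases for Xelaev18003703m and 644 bases for Xelaev18003702m.

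A further kazald1 transcript, Xelaev18008647m, was expressed at lower levels. It stood at 49.2, 41.5 and 43.0 RPKM in the dorsal lips, at 8.68, 0.556 and 1.03 RPKM in the ventral lips, and at 24.7 RPKM in the whole embryo. The dorsal mean of 44.6 ± 4.11 RPKM lay below that of both other kazald1 transcripts in every dorsal library, and the ventral mean was 3.42 ± 4.56 RPKM. Its level relative to Xelaev18003703m was 0.270 in dorsal lip 1, 0.415 and 0.398 in dorsal lips 2 and 3, and 0.186 in the whole embryo. In ventral lips 1, 2 and 3 this ratio was 0.201, 0.213 and 0.363, with 15 and 24 reads of Xelaev18008647m in ventral lips 2 and 3. The remaining rows with the human symbol KAZALD1 were close to silent. Xelaev18036946m held at most 13 reads in a library, which was the whole embryo, and Xelaev18034652m held 1 read, in dorsal lip 1.

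Both pkdcc transcripts were an order of magnitude lower in the dorsal lips than the leading kazald1 rows and almost unread in the ventral lips. Xelaev18028726m stood at 9.75, 5.09 and 5.74 RPKM in the dorsal lips and at 0.145, 0.0622 and 0.0180 RPKM in the ventral lips, with 5.11 RPKM in the whole embryo. Xelaev18026172m stood at 7.90, 5.28 and 7.44 RPKM in the dorsal lips and at 0.163, 0.0437 and 0.0607 RPKM in the ventral lips, with 3.55 RPKM in the whole embryo. The groups did not overlap for either transcript. The dorsal means of 6.86 ± 2.52 and 6.88 ± 1.399 RPKM differed by less than their spread. The ventral values rest on 21, 8 and 2 reads for Xelaev18028726m and on 21, 5 and 6 reads for Xelaev18026172m. With 2 reads, the exact Poisson 95% interval of Xelaev18028726m in ventral lip 3 ran from 0.00218 to 0.0650 RPKM, which covers counting error only.

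By its dorsal mean, angptl4.L was the lowest of the 8 transcripts over the level filter. It stood at 3.41, 3.14 and 4.49 RPKM in dorsal lips, at 0.759, 0.0904 and 0.239 RPKM in ventral lips and at 1.58 RPKM in the whole embryo. Every dorsal library lay above every ventral one, and ventral lip 1 was again the highest of its group. The means were 3.68 ± 0.715 and 0.363 ± 0.351 RPKM, and the difference was 2.34 on the log2(RPKM + 0.5) scale. The ventral values rest on 66, 7 and 16 reads. The copy angptl4.S is listed at 0 in all 7 libraries, so only the L copy was detected at this depth, where 0 reads still allow 3 reads in a library.

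The pnhd copies went the other way. The copy pnhd.L stood at 5.94, 6.24 and 2.92 RPKM in the dorsal lips, at 46.8, 8.79 and 12.8 RPKM in the ventral lips and at 53.2 RPKM in the whole embryo. The copy pnhd.S stood at 10.2, 7.40 and 3.996 RPKM in the dorsal lips, at 54.5, 8.87 and 12.6 RPKM in the ventral lips and at 78.3 RPKM in the whole embryo. The groups did not overlap for pnhd.L, while for pnhd.S dorsal lip 1 lay above ventral lip 2. The differences were -1.77 for pnhd.L and -1.39 for pnhd.S on the log2(RPKM + 0.5) scale, dorsal minus ventral. Without ventral lip 1 the differences were -1.07 and -0.62. The pnhd copies thus did not share the higher dorsal levels of the other 3 genes in these libraries.

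**Figure D1:**
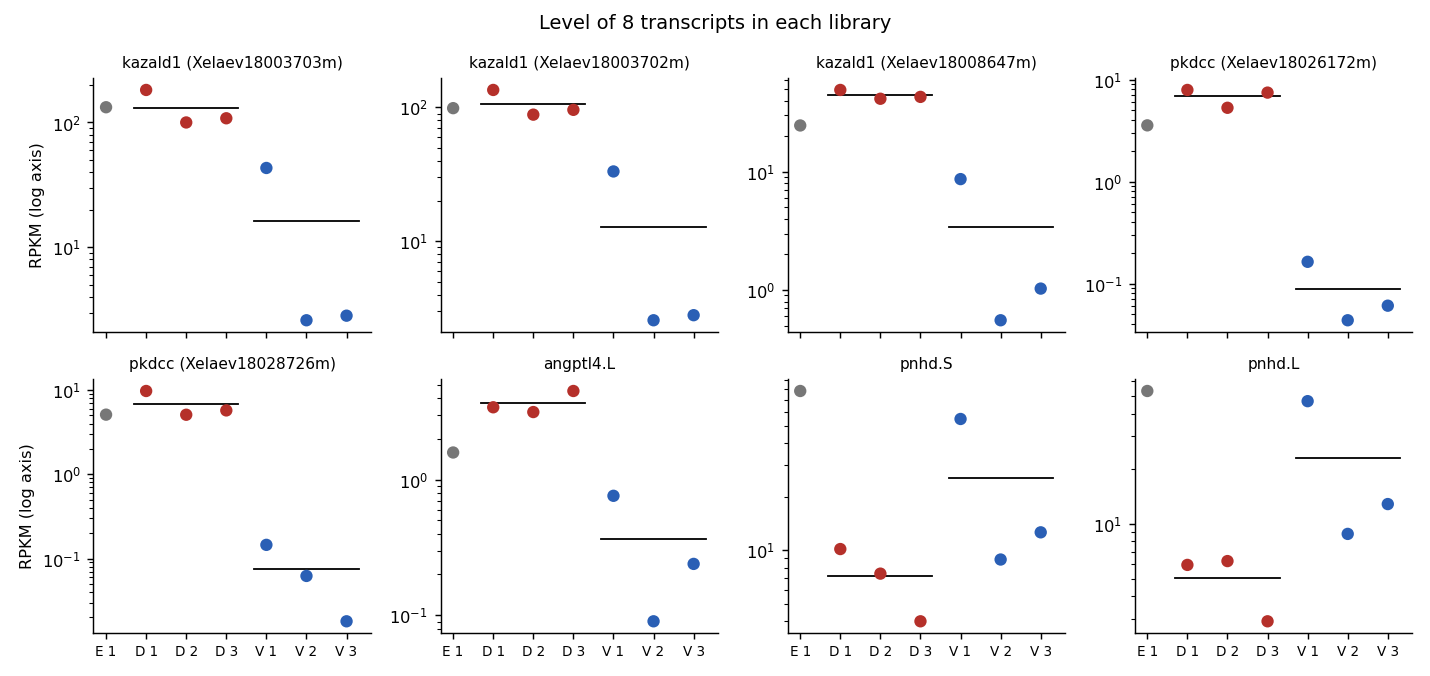
RPKM on a log axis, with its own scale in each panel, of the 8 transcripts in the whole embryo (E, grey), dorsal lips 1 to 3 (D, red) and ventral lips 1 to 3 (V, blue), with black lines at the means of the dorsal and ventral lips. Ventral lip 1 is the highest ventral library in every panel, and the whole embryo lies above all lips in the 2 pnhd panels.

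Of the 16514 transcripts tested between dorsal and ventral lips, 54 (0.327%) passed limma at an adjusted p under 0.05, 41 (0.248%) higher in dorsal and 13 (0.0787%) higher in ventral lips. The 41 include both pkdcc rows, from which nothing is read since this contrast chose them. With the experiment number as a block, 777 (4.71%) passed, 391 (2.37%) of them higher in dorsal and 386 (2.34%) higher in ventral lips. Without the block, limma called 139 transcripts when ventral lip 1 was left out, and 27, 24, 25 and 21 when dorsal lip 2, dorsal lip 3, ventral lip 2 or ventral lip 3 was left out. Values of the groups did not overlap for 510 transcripts (3.09%) higher in dorsal and 630 (3.81%) higher in ventral lips. Among the 8 transcripts described here, the count was 6 on the dorsal and 1 on the ventral side, which the choice of members fixed. By size of the log2 difference, the kazald1 rows held places 23, 25 and 30 from the dorsal end, the pkdcc rows places 32 and 33, and angptl4.L place 69. From the ventral end, pnhd.L held place 35 and pnhd.S place 50.

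The dorsal to ventral ratio was then taken within each experiment. For Xelaev18003703m it was 4.22 in experiment 1 and 38.4 and 38.1 in experiments 2 and 3. For Xelaev18003702m it was 4.06, 34.3 and 34.1, and for Xelaev18008647m 5.68, 74.7 and 41.8. For angptl4.L it was 4.49, 34.7 and 18.8. All 4 transcripts thus had a ratio between 4.06 and 5.68 in experiment 1 and of 18.8 or more in both others.

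The pkdcc ratios were 67.0, 81.9 and 319 for Xelaev18028726m and 48.4, 121 and 123 for Xelaev18026172m, and in experiment 1 both lay above the ratio of every kazald1 row. Both rows thus had their lowest ratio in experiment 1. On the log2(RPKM + 0.5) scale, the differences in experiments 1, 2 and 3 were 3.99, 3.31 and 3.59 for Xelaev18028726m and 3.66, 3.41 and 3.82 for Xelaev18026172m. Experiment 1 was not the lowest on that scale, which understates differences where ventral values lie this near 0. The ratio of 319 rests on the 2 reads in ventral lip 3. For pnhd the ventral to dorsal ratio was 7.87, 1.41 and 4.38 for the L copy and 5.37, 1.20 and 3.16 for the S copy. Both copies were thus most ventral in experiment 1 and nearly even between the lips of experiment 2.

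**Figure D2:**
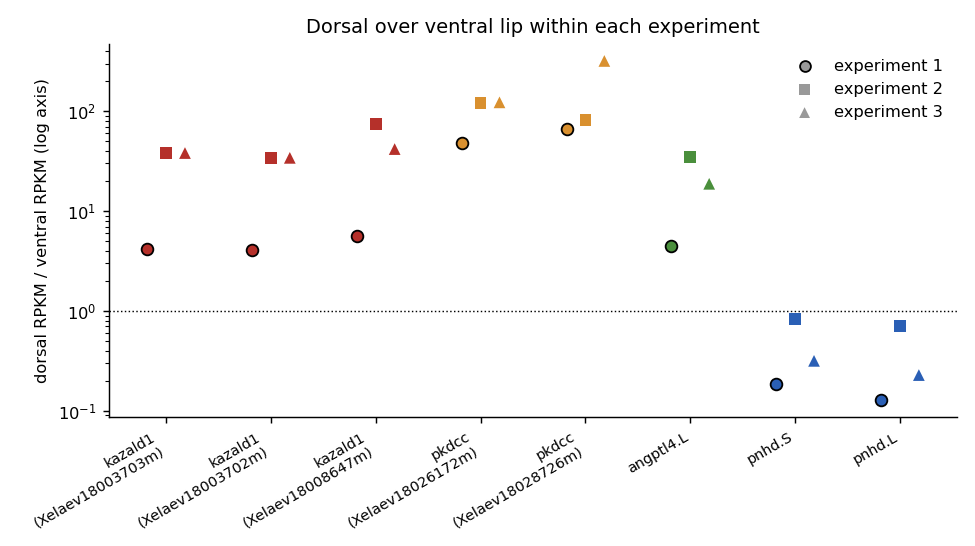
Dorsal RPKM over ventral RPKM (log axis) of the 8 transcripts within experiment 1 (outlined circles), experiment 2 (squares) and experiment 3 (triangles), with a dotted line at equal levels. The kazald1 rows and angptl4.L lie between 4.06 and 5.68 in experiment 1 and at 18.8 or more in the others, the pkdcc rows lie at 48.4 or more, and the pnhd rows lie below 1 in all 3 experiments.

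Ventral lip 1 was then set against the other ventral lips, across experiments. For Xelaev18003703m, ventral lip 1 stood 15.9 times above the mean of ventral lips 2 and 3, for Xelaev18003702m 12.4 times and for Xelaev18008647m 10.9 times. The factor was 5.08 for pnhd.S, 4.61 for angptl4.L and 4.33 for pnhd.L, and 3.63 and 3.13 for the pkdcc rows Xelaev18028726m and Xelaev18026172m, which rest on few reads. Ventral lip 1 was over 2 times both other ventral lips for all 8 transcripts, against 1012 of the transcripts tested (6.13%), and since these libraries were used in the choice nothing is read from that share. On the log2(RPKM + 0.5) scale, the excess was 3.76, 3.40 and 2.85 for the kazald1 rows, which is place 17, 37 and 81 from the highest. It was 2.31 for pnhd.S, at place 166, with pnhd.L next of these rows at place 221, 0.93 for angptl4.L and 0.26 for both pkdcc rows, where the median of all transcripts tested was -0.18.

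On the same scale, the excess of dorsal lip 1 over the mean of dorsal lips 2 and 3 was 0.81 for Xelaev18003703m, 0.55 for Xelaev18003702m and 0.22 for Xelaev18008647m, against a median of -0.18. It was 0.84 for pnhd.S and 0.42 for pnhd.L, and -0.13 for angptl4.L. For the kazald1 rows, angptl4.L and both pnhd copies it was smaller than that of ventral lip 1. For the pkdcc rows it was larger on this scale, at 0.80 for Xelaev18028726m and 0.31 for Xelaev18026172m. In RPKM the order was reversed. Dorsal lip 1 stood 1.80 and 1.24 times above the mean of the other dorsal lips for these rows, and ventral lip 1 stood 3.63 and 3.13 times above. Their ventral values lie near 0, where this scale understates differences.

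**Figure D3:**
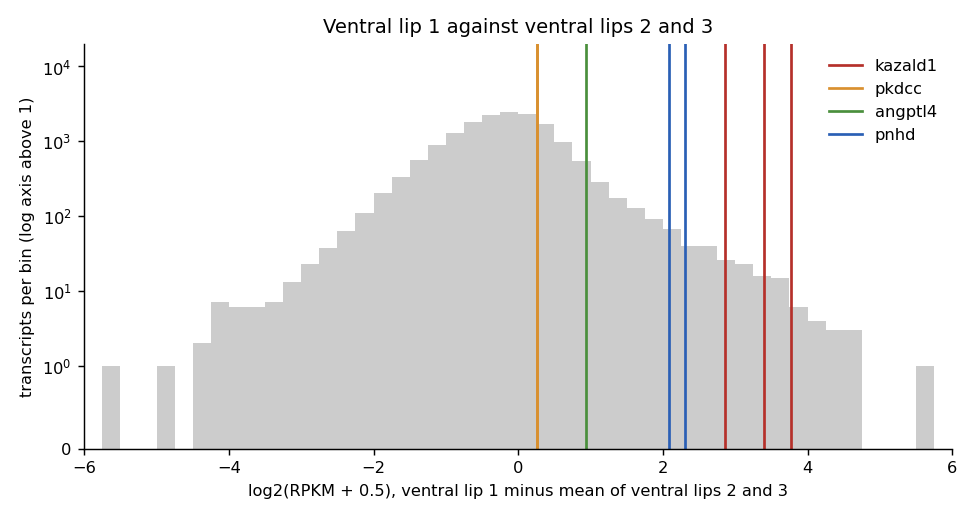
Number of transcripts (grey bars, log axis above 1) by the difference of log2(RPKM + 0.5) between ventral lip 1 and the mean of ventral lips 2 and 3, with a line for each of the 8 transcripts. The kazald1 lines stand at 2.85, 3.40 and 3.76, the pnhd lines next to each other at and just below 2.31, the angptl4.L line at 0.93 and the 2 pkdcc lines on top of each other at 0.26.

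Many markers were higher in ventral lip 1 than in the other ventral lips, those of the ventral side among them. The ventral center markers summed to 1325 RPKM in ventral lip 1 and to 723 and 813 RPKM in ventral lips 2 and 3. All 10 of their transcripts were highest in ventral lip 1, and 2 were over 2 times both others. The 11 organizer marker transcripts summed to 42.9 RPKM in ventral lip 1 and to 7.95 and 9.03 RPKM in ventral lips 2 and 3, against 1211 to 1331 RPKM in the dorsal lips. Of these 11, 9 were highest in ventral lip 1 and 6 were over 2 times both others. In that library chordin stood at 0.188 to 0.871 RPKM, against 0.0845 to 0.396 RPKM in the other ventral lips, and nog.L at 0.185 RPKM, against 0.156 and 0.2004 RPKM. The homeobox transcripts gsc.L and gsc.S stood at 2.41 and 3.30 RPKM, against 0.615 to 1.78 RPKM. The OTX2 row Xelaev18039840m stood at 5.24 RPKM against 0.677 and 0.944 RPKM, and the OTX2 row Xelaev18041108m at 0.260 RPKM against 0.478 and 0.385 RPKM. All of these lay far below their dorsal levels. The level of lhx1.L was 18.9 RPKM in ventral lip 1 and 2.58 and 3.54 RPKM in the others, and that of lhx1.S was 11.1 against 0.788 and 0.976 RPKM.

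Markers of the mesoderm around the whole blastopore and Wnt targets summed to 1009 RPKM in ventral lip 1 and to 508 and 632 RPKM in the others. Of their 15 transcripts over the level filter, 12 were highest in ventral lip 1 and 7 were over 2 times both others. Both wnt8a copies, already counted among the ventral center markers, are in this list too. They do not mark the whole ring, at no more than 6.48 RPKM in the dorsal lips. Endoderm markers summed to 405 RPKM against 234 and 257 RPKM, and epidermis markers to 382 RPKM against 214 and 244 RPKM. Of the 10 endoderm transcripts, 8 were highest in ventral lip 1, as were 11 of the 13 epidermis transcripts over the level filter. Both endoderm rows of sox17a were lowest in ventral lip 1. The copy sox17a.L stood at 41.4 RPKM there, against 51.2 and 48.2 RPKM, and sox17a.S at 36.4 RPKM. The early ectodermal and neural marker rows Xelaev18038842m and Xelaev18042169m (SOX3) were also lower there, at 132 and 229 RPKM in ventral lip 1 and between 366 and 585 RPKM in the others. Neural markers did not all do so. The row sox2.1 stood at 14.9 RPKM in ventral lip 1 and at no more than 9.15 RPKM in the others. The copy zic1.L was also highest in ventral lip 1, while zic1.S was lower there than in both others. The part of these differences in the ventral levels of kazald1, angptl4 and pnhd was not tested.

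The whole embryo library was compared with the lips of its own experiment. It lay between the lips for the 3 kazald1 rows, both pkdcc rows and angptl4.L, as did 4032 of the transcripts tested (24.4%), and above both lips for both pnhd copies, as did 7308 (44.3%). Dorsal lip 1 stood 1.38 times above the whole embryo for Xelaev18003703m, 1.37 times for Xelaev18003702m and 1.997 times for Xelaev18008647m. It stood 1.91 and 2.22 times above for the pkdcc rows Xelaev18028726m and Xelaev18026172m and 2.15 times for angptl4.L. Among the 39 other transcripts that limma called higher in dorsal lips, this ratio had a median of 2.72 and quartiles of 1.93 and 3.41, and 5 of them lay below Xelaev18003703m. For the chordin transcripts it was 5.55, 5.17 and 4.15.

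Ventral lip 1 held 0.326 of the whole embryo level for Xelaev18003703m, 0.480 for angptl4.L and 0.0285 and 0.0459 for the pkdcc rows, where the median of the 39 transcripts was 0.0850. Those 39 were called partly for low ventral levels, so nothing is read from the place of these rows beside them. The whole embryo level of pnhd was 8.94 times that of dorsal lip 1 for the L copy and 7.70 times for the S copy, and 1.14 and 1.44 times that of ventral lip 1. There is 1 whole embryo library, so these ratios have no replicate check.

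Xenopus laevis carries L and S copies of many genes from its ancestral genome duplication, and the level of 1 copy against the other was not used in choosing the rows. The ratio of pnhd.L to pnhd.S was 0.585, 0.843 and 0.731 in the dorsal lips, 0.858, 0.990 and 1.01 in the ventral lips and 0.679 in the whole embryo. The S copy was therefore higher in all but ventral lip 3. Over the 6 lips, pnhd.L lay below pnhd.S by -0.26 on the log2(RPKM + 0.5) scale (SE 0.0798, 95% interval -0.457 to -0.0634, limma adjusted p = 0.0234, and 0.00133 with the block). The limma adjusted p was 0.0542 without dorsal lip 3, 0.0604 without ventral lip 1 and 0.0532 without ventral lip 2, where the differences were -0.27, -0.22 and -0.27. Across the 4349 pairs tested, 3534 (81.3%) differed in level, and 4047 (93.1%) with the block, so that a difference within a pair is common in these libraries. These pairs are the L and S rows of a frog name or the only 2 rows of a human symbol. Pairs of the latter kind need not be L and S copies.

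For pkdcc, the ratio of Xelaev18026172m to Xelaev18028726m was 0.810, 1.04 and 1.30 in the dorsal lips and 1.12, 0.702 and 3.37 in the ventral lips, where few reads stand behind it, and 0.696 in the whole embryo. The difference over the lips was 0.036 (SE 0.0891, 95% interval -0.184 to 0.256, limma adjusted p = 0.725), and it was -0.042 without dorsal lip 3. The RefSeq gene table of assembly v10.1 names 4 pkdcc genes, and which of them the 2 rows are is not given in the sources used here. How the authors counted reads that match both copies is not given in the sources used here, so the levels of copies are uncertain to that degree.

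Likeness was measured as Pearson's r of log2(RPKM + 0.5) over the 7 libraries, which share their experiments and depth. Besides each other, the closest patterns to Xelaev18003703m and Xelaev18003702m were those of lhx1.S, at 0.997 and 0.996, and of lhx1.L, at 0.997 for Xelaev18003702m. Lhx1 is a homeodomain factor of the organizer. The glucose transporter row Xelaev18004190m (SLC2A1) followed for Xelaev18003703m at 0.996, with 13.8 RPKM in ventral lip 1 and 1.08 and 1.27 RPKM in the others. Close to Xelaev18008647m were foxa4.L, a forkhead factor of the axial midline, at 0.998 and fam83b.S at 0.994.

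The pkdcc rows were closest to other genes. For Xelaev18026172m these were the chordin transcript Xelaev18029538m, the unnamed Xelaev18030716m and the Wnt receptor row Xelaev18047362m (FZD7), all at 0.998. For Xelaev18028726m they were lrig3.L at 0.996 and both copies of admp, a BMP family ligand made by the organizer, at 0.995. These transcripts share the low value in ventral lip 1, with 1.73 RPKM for lrig3.L and 0.871 RPKM for Xelaev18029538m. An exception in level is Xelaev18047362m, which stood at 59.3 RPKM there and at 107 RPKM in dorsal lip 1.

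For angptl4.L the closest were Xelaev18001619m (PRSS27) at 0.995, Xelaev18023577m (RGS1) at 0.993 and foxa4.S at 0.992. For pnhd.L they were Xelaev18031181m (BLVRA) at 0.994, Xelaev18028949m (WTAP) at 0.987 and cdk5rap2.L at 0.986, and for pnhd.S they were st7l.L and pawr.L at 0.993 and MGC89906.S at 0.987. The measure ignores amplitude. The level of Xelaev18028949m ran only from 39.2 to 45.2 RPKM over the libraries, while Xelaev18031181m ran from 0.805 to 15.7 RPKM, a range nearer to that of pnhd.L.

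The authors also deposited correlation coefficients of each transcript to chordin and to bambi over 26 samples, which include kinds not analysed here. In the authors' deposited table, the coefficient to chordin was 0.681 for Xelaev18008647m, 0.674 for Xelaev18003702m, 0.641 for angptl4.L and 0.639 for Xelaev18003703m, places 82, 86, 117 and 120 of 40499. In the authors' deposited table, the pkdcc rows Xelaev18028726m and Xelaev18026172m reached 0.149 and 0.0483, at places 10923 and 17608. In the authors' deposited table, the pnhd copies had coefficients to chordin of 0.0488 for pnhd.S and 0.00646 for pnhd.L. In the authors' deposited table, the coefficient to bambi, a transmembrane BMP inhibitor of the ventral side, was -0.585 for angptl4.L, place 30 from the bottom. It lay between -0.421 and -0.285 for the kazald1 and pkdcc rows in the authors' deposited table, and at 0.246 and 0.130 for pnhd.L and pnhd.S.

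**Figure D4:**
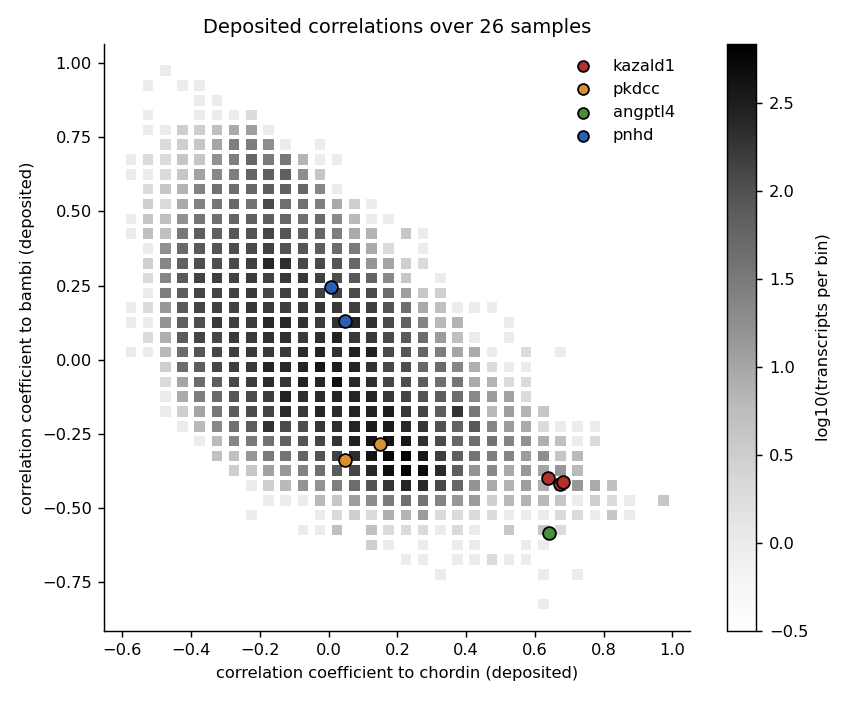
The authors' deposited correlation coefficients to chordin (horizontal) and to bambi (vertical) over 26 samples, as numbers of transcripts per bin (grey, log10 scale) with the 8 transcripts as coloured points. The kazald1 rows and angptl4.L lie at 0.639 or more on the chordin axis, while both pkdcc rows lie at 0.149 or less.

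The authors' deposited table of dorsal transcripts, made from experiments 2 and 3, lists 5 of the 11 rows among its 315 entries, with ratios of 135 for Xelaev18028726m, 122 for Xelaev18026172m, 53.3 for Xelaev18008647m, 38.3 for Xelaev18003703m and 23.1 for angptl4.L. The authors' deposited table of ventral transcripts lists none of them among 94 entries. Every entry of both tables carries a human symbol, while Xelaev18003702m and the pnhd copies have none. Whether this kept them out was not tested. By the means of experiments 2 and 3, the ventral to dorsal ratio was 2.36 for pnhd.L and 1.89 for pnhd.S. The authors' deposited ventral signature, where 12 of 70 entries have no human symbol, lists none of the 11 rows either. In the authors' deposited dorsal signature of 107 entries, 4 of the rows appear, with ratios of 91.2 for Xelaev18028726m, 10.1 for angptl4.L, 8.26 for Xelaev18003702m and 8.02 for Xelaev18003703m. These equal, to 3 digits, the ratio of the mean RPKM of all 3 dorsal to all 3 ventral libraries, so that the kazald1 ratios there include ventral lip 1.

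The families of the 4 genes were set beside them with the rows of the 4 genes left out. Of 31 further transcripts with an insulin-like growth factor binding domain, such as kazald1 has, 3 were over the level filter and none passed limma without or with the block, where the shares over all transcripts were 0.327% and 4.71%. From a list this short, nothing is read about the family. Their differences ran from -0.24 for igfbp5.S to 0.11 for Xelaev18036829m (HTRA1), and none had an unadjusted p under 0.05. The copy igfbp5.L, a growth factor binding protein, had dorsal and ventral means of 6.97 ± 0.565 and 7.53 ± 1.21 RPKM.

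Of 24 further kinases of the secretory pathway, the class of pkdcc, 7 were over the level filter and none passed limma without or with the block, against the same shares of 0.327% and 4.71%, so that nothing is read from it. Their median difference was -0.19, where that of all transcripts tested was -0.05, and 0 had an unadjusted p under 0.05. The xylose kinase transcript fam20b.L had dorsal and ventral means of 10.8 ± 3.57 and 11.6 ± 3.64 RPKM. Of 39 further angiopoietin and lipoprotein lipase transcripts, the surroundings of angptl4, 8 were over the filter and none passed either fit, with none at an unadjusted p under 0.05. The shares over all transcripts were again 0.327% and 4.71%, so that nothing is read from this list. The angiopoietin-like row Xelaev18021227m (ANGPTL5) had dorsal and ventral means of 38.6 ± 7.75 and 32.7 ± 3.71 RPKM.

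The list of Chordin and BMP proteins, the surroundings of pnhd, held 25 transcripts over the filter, of which 7 were higher in dorsal and 4 higher in ventral lips, and 9 and 9 with the block, where the shares over all transcripts were 0.248% and 0.0787%, and 2.37% and 2.34% with the block. Without ventral lip 3, limma called 7 in all. Its median difference was -0.09. The 3 chordin transcripts led, with log2 differences of 8.40, 8.01 and 7.81, followed by admp.S at 6.55 and the BMP antagonist nog.L at 5.85. The partner admp.L had dorsal and ventral means of 36.2 ± 13.6 and 0.376 ± 0.228 RPKM (log2 difference 5.36, limma adjusted p = 0.00307). The sizzled copy szl.L, an inhibitor of Chordin proteases, stood at 0.776 ± 0.507 and 37.0 ± 16.5 RPKM (-4.86, limma adjusted p = 0.0138). The ligand admp2.L stood at 2.18 ± 0.475 and 16.5 ± 1.62 RPKM (-2.68, limma adjusted p = 0.00601). Its ventral levels of 14.9, 16.5 and 18.2 RPKM were not highest in ventral lip 1, unlike those of pnhd. Of the Chordin proteases, the BMP1 row Xelaev18018758m stood at 13.2 to 16.1 RPKM in all lips and the BMP1 row Xelaev18020192m at 6.72 to 13.1 RPKM. None of the 10 rows named TLL1 was over the filter.

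The list of Lrp6, syndecan and planar cell polarity proteins, the surroundings of angptl4 and pkdcc in Wnt signalling, held 35 transcripts over the filter. Of these, 2 were higher in dorsal lips and none in ventral lips, and 7 and 1 with the block, where the shares over all transcripts were 0.248% and 0.0787%, and 2.37% and 2.34% with the block. A single call was left when any lip library but ventral lip 1 was left out. Its median difference was -0.01. The Lrp6 ligand dkk1.S, a Wnt antagonist, had dorsal and ventral means of 18.8 ± 5.41 and 0.296 ± 0.100 RPKM (4.57, limma adjusted p = 0.00186). The receptor row Xelaev18047362m (FZD7) stood at 106 ± 2.04 and 57.0 ± 2.19 RPKM (0.89, limma adjusted p = 0.0138). The other FZD7 row over the filter, Xelaev18044942m, stood at 192 ± 22.1 and 136 ± 6.18 RPKM (0.49). It passed only with the block (limma adjusted p = 0.00910, and 0.367 without it).

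Other members of that list passed only with the block. The Wnt5 co-receptor ror2.L stood at 16.1, 2.54 and 3.59 RPKM in the dorsal and at 6.43, 0.191 and 0.344 RPKM in the ventral lips (1.89, limma adjusted p = 0.0153 with the block, not passed without it). Its levels were highest in experiment 1 on both sides. The syndecan row Xelaev18043244m (SDC4) stood at 37.8, 11.5 and 10.8 RPKM in the dorsal and at 25.8, 8.08 and 7.70 RPKM in the ventral lips (0.50, limma adjusted p = 0.0110 with the block). The other SDC4 row over the filter, Xelaev18046006m, passed neither fit. It stood between 29.4 and 41.4 RPKM in all lips (-0.054, limma adjusted p = 0.535 with the block). The copies dkk1.L and ror2.S had log2 differences of 1.75 and 1.12 (limma adjusted p = 0.0487 and 0.00368 with the block). The Dishevelled row Xelaev18027442m (DVL3) was the 1 call on the ventral side, at -0.47 (limma adjusted p = 0.0359 with the block), and was named after its value was seen. The other DVL3 row over the filter, Xelaev18029558m, passed neither fit (-0.10, limma adjusted p = 0.349 with the block). The co-receptor row lrp6.1 itself stood between 8.11 and 10.6 RPKM in all lips, and the row lrp6.S between 3.94 and 7.07 RPKM. The polarity protein row Xelaev18040638m (VANGL2) stood between 63.4 and 70.0 RPKM in all lips, and the other VANGL2 row, Xelaev18042800m, between 43.4 and 90.7 RPKM. The row Xelaev18019661m (DVL2) stood between 62.1 and 99.8 RPKM.

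**Figure D5:**
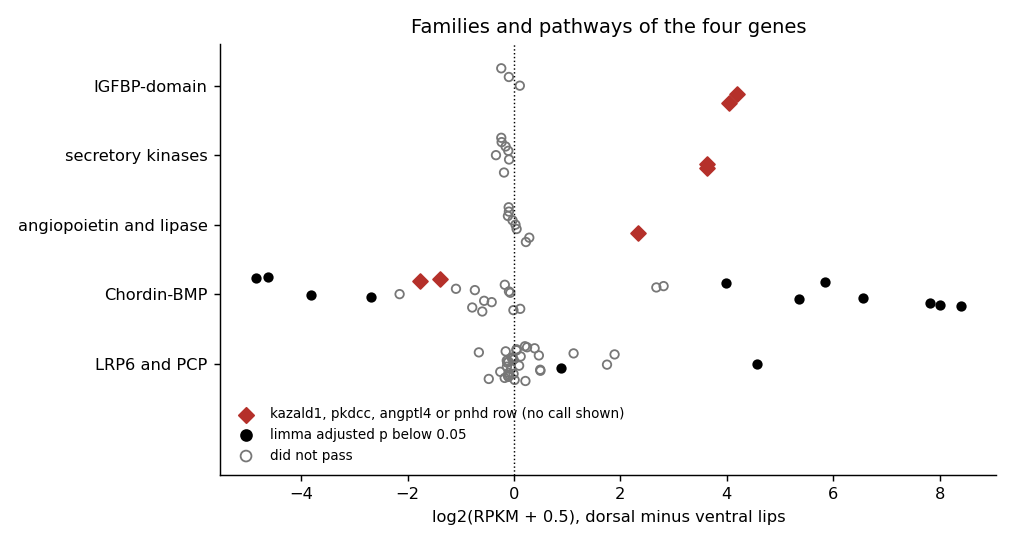
Dorsal minus ventral difference of log2(RPKM + 0.5) for each transcript over the level filter in the 5 lists, with transcripts past limma as black points, those that did not pass as open points and the rows of the 4 genes, for which no call is shown, as red diamonds. The 3 upper lists hold no black point, and their open points lie between -0.34 and 0.29.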

How the data were processed

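The members and gene lists were chosen with earlier results of these data known. RPKM per transcript were deposited by the authors for 7 libraries. TopHat2 2.09 and DESeq are named, without roles, in the submitters' processing notes; per the file headers, gene models are those of JGI 9.1. How reads were counted, by strand or when shared, was not given in the sources used here. Each ratio and p-value in the authors' deposited tables is theirs, as is the correlation score to chordin and bambi. Whole reads and lengths were recovered from the RPKM steps, within 0.00001 reads for all but 1 of 35326 transcripts above 0. The smallest length that gave whole reads in every library above 0 was taken. True reads and lengths may therefore be a multiple of those given, above all where few libraries hold a value.

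Dorsal and ventral lips were compared with limma 3.58.1 under R 4.3.3, two-sided and with a trended eBayes step, from log2(RPKM + 0.5) values of transcripts averaging 1 RPKM or more in the 6 lips, with Benjamini-Hochberg adjustment over 16514 transcripts and a threshold of 0.05; this scale understates differences near 0. Copies of a gene were compared by a limma intercept test over 4349 pairs, with both rows averaging 1 RPKM or more in the lips. A pair was the L and S rows of a frog name or the only 2 rows of a human symbol. The block pairs the libraries by the experiment numbers of the file headers. Within each experiment, the dorsal and the ventral library's departures from their group means correlated across transcripts (0.926, 0.881 and 0.819). The correlation was 0.839 for dorsal lip 2 with ventral lip 3 and 0.748 for dorsal lip 3 with ventral lip 2. These values thus set experiment 1 apart, but do not separate the pairs of experiments 2 and 3. Named were all members, the 3 most alike transcripts of each (1 of them is not reported here), and from each list the leading calls and stated partners. Rows were matched by symbol, and names were checked in the RefSeq table of v10.1, whose coordinates were not used. Alternatives were other pseudocounts, no filter, limma voom on recovered reads, rescaled columns, the block, leaving out each lip library and experiments 2 and 3 alone.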

Additional observations from a re-analysis of the deposited data

How the results depend on the processing

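Pseudocounts of 0.1 and 1, no filter on low values and limma voom on recovered reads left the counts of called transcripts within 1.5 times. With the replicate block, which pairs the lips by experiment, 777 transcripts passed in place of 54, 391 of them dorsal and 386 ventral, with 18 calls in the Chordin and BMP list and 8 in the Lrp6 and polarity list. In experiments 2 and 3 alone, chosen after seeing the data, the counts were 698, 471 and 227, with 17 and 9 calls, and with the replicate block 1528, 732 and 796, with 20 and 12 calls and 2 in the secretory kinase list. Leaving out each lip library in turn gave 21 to 139 calls, 19 to 125 dorsal and 2 to 14 ventral, and 7 to 11 and 1 to 2 in those lists. The most dorsal calls came without ventral lip 1, where the log2 difference of Xelaev18003703m was 5.29.

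With pseudocounts of 0.1 and 1, the differences were 5.32 and 2.83 for Xelaev18028726m, 5.24 and 2.84 for Xelaev18026172m and 3.29 and 1.80 for angptl4.L, since their ventral values lie near 0. Leaving out libraries in turn, pnhd.L minus pnhd.S ran from -0.32 to -0.19 and missed the limma threshold without dorsal lip 3, ventral lip 1 or ventral lip 2. The pkdcc copy difference, which passed in no fit, ran from -0.042 to 0.117. The replicate block changed the call of neither the pnhd nor the pkdcc pair. The cause was not tested. With 2 to 21 reads, ventral levels of pkdcc are limited by depth.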
